A study of Xenopus laevis with 8 samples.

Results

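Ectoderm explants of Xenopus laevis that expressed Flag-Pinhead, an epitope-tagged form of the secreted protein Pinhead, were compared with untreated ectoderm explants by RNA-seq. The 4 samples were taken by their labels from the 8 of the series: 2 samples of ectoderm with 1.5 ng of Flag-Pinhead RNA and 2 of control ectoderm that received no treatment, all labelled stage 11, a gastrula stage. The other 4 samples are marginal zone explants, the belt that forms mesoderm. Of these, the 2 untreated ones, labelled stage 10.5, enter here only as a further level for genes that changed and as part of the estimate of spread. The 2 samples with PhSpMo, by the labels an MO oligonucleotide for depletion, were not used in the comparison. Total counts were 15569096 and 15227252 in Flag-Pinhead ectoderm and 19719311 and 17534756 in control ectoderm. No label names the strain, the number of explants pooled in a sample or the clutch, so the p-values speak only of how these samples scatter, and that scatter could be technical. The controls are untreated and not injected with another RNA, so an effect of injection cannot be told apart from an effect of Flag-Pinhead.

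Ectoderm of the blastula animal pole, cut out and cultured alone, forms epidermis. Inducing signals of the FGF and Nodal families turn it towards mesoderm, and in Xenopus pinhead is known as a gene of the gastrula marginal zone whose product is secreted. A secreted protein enters the endoplasmic reticulum (ER) through the Sec61 channel, is folded and cross-linked there by chaperones and disulfide isomerases, and leaves through the Golgi. Non-neural ectoderm is known to depend on BMP signalling and on regulators such as Tfap2a, Foxi, Dlx and Grainyhead-like factors. X. laevis is allotetraploid, and most of its genes exist as an L and an S copy, from its longer and shorter subgenomes, which were measured separately.

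The injected gene was checked first. Reads of pnhd.L made up 3.18% and 5.99% of all counts in the Flag-Pinhead libraries, 32820 and 63690 CPM (counts per 1000000) of the other genes' total, against 16.1 and 18.3 in control ectoderm. Flag-Pinhead library 2 thus held nearly 2 times the injected share of library 1. The endogenous S copy (LOC108706889 in the deposited table) had 14.8 and 11.3 CPM in Flag-Pinhead ectoderm, against 1.06 and 1.43 in control ectoderm. In Flag-Pinhead libraries 1 and 2 these were 223 and 162 counts, beside 494734 and 911745 of pnhd.L. The S copy could take stray reads of the injected RNA, which was not tested. Both pnhd genes were left out of library sizes and of every count below. All other levels are CPM scaled by TMM factors (edgeR's adjustment of library sizes).

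The tissue label was checked with defining markers. The epidermal keratin krt12.L had 239.5 and 180.4 CPM in Flag-Pinhead ectoderm, against 215 and 254 CPM in control ectoderm, a log2 fold change of -0.16 that did not pass the test (adjusted p = 0.203, edgeR's quasi-likelihood test). The epidermal regulator grhl3.L had 251 and 237 CPM in Flag-Pinhead ectoderm, against 292 and 297 CPM in control ectoderm. Its S copy had a log2 fold change of -0.57. The AP-2 factor tfap2a was lower in both copies, with log2 fold changes of -1.36 (L) and -1.64 (S). Levels of tfap2a.L were 209 and 207 CPM in Flag-Pinhead ectoderm, against 537 and 526 CPM in control ectoderm. Ectoderm markers were thus abundant in all 4 libraries, with tfap2a and grhl3 lower in Flag-Pinhead ectoderm. Mesoderm markers (t, vegt, eomes and wnt8a, both copies of each) were all higher in both Flag-Pinhead libraries, and t.L had 143 and 115 CPM in Flag-Pinhead ectoderm, against 2.31 and 2.44 CPM in control ectoderm. Of the endoderm markers, both copies of gata4 and gata6, sox17a.S and sox17b.1.S stayed under 1 CPM in all 4 libraries. Higher at low levels were sox17a.L, with 1.81 and 2.61 CPM in Flag-Pinhead ectoderm, against 0.151 and 0.397 CPM in control ectoderm, and sox17b.2.L. The latter reached 4.31 and 6.85 CPM in Flag-Pinhead ectoderm, against 1.11 and 0.624 CPM in control ectoderm. Embryonic globin and gata1 were at or near 0 in all 4 libraries, and the germ plasm gene ddx4.L stood at 86.1 and 82.9 CPM in Flag-Pinhead ectoderm, against 85.3 and 82.02 CPM in control ectoderm. Of whole lists, 88 mesoderm markers were in the table and 56 had enough counts to be tested. Of those tested, 48 were called higher and 1 lower. A marker near 0 in control ectoderm could pass the count filter through Flag-Pinhead ectoderm alone, so this share is a description only. The summed level of the list was 2182 and 1951 CPM in Flag-Pinhead ectoderm, against 174 and 196 CPM in control ectoderm. The corresponding endoderm sums were 650.4 and 691 CPM in Flag-Pinhead ectoderm, against 171 and 163 CPM in control ectoderm, much of it vegt, which is on both lists. What share of the changes below lies in cells that turned to mesoderm was not tested.

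A gene was called changed when its adjusted p (Benjamini-Hochberg over all genes tested) was under 0.05. Of 20556 genes tested, 5950 were called (28.9%), 3359 of them higher in Flag-Pinhead ectoderm (16.3%) and 2591 lower (12.6%). The 2 directions differed in size. At least 2-fold changes were called for 1493 genes higher (7.26%) and 193 lower (0.939%), at least 4-fold for 789 higher and 35 lower, and at least 8-fold for 447 higher and 10 lower. Of the genes called lower, 1930 changed by less than 0.585 on the log2 scale (1.5-fold). In 62.2% of all genes tested the 2 libraries of one group lay wholly above or below those of the other, called or not. Statements below that groups did not overlap are to be read beside that share and lend no support to a call. The median log2 change of all tested genes was -0.004. Without Flag-Pinhead library 2, at least 2-fold lower calls numbered 300. Without control ectoderm library 1 or 2, calls of any size numbered 4030 or 4105, of which 1658 or 1643 were lower.

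Together, the 1493 genes at least 2-fold higher took 36971 and 34830 CPM in the Flag-Pinhead libraries, against 10153 and 10660 CPM in control ectoderm. The 193 at least 2-fold lower took 2450 and 2536 CPM in the Flag-Pinhead libraries, against 6997 and 6975 CPM in control ectoderm. Genes were more often lowered than lost: of those 193 genes 127 kept a mean of at least 1 CPM with Flag-Pinhead. By a rule of under 0.5 CPM in Flag-Pinhead ectoderm and at least 2 CPM in control ectoderm, 2 called genes were lost. They were tasl.S, known in human cells as an adaptor for the interferon factor IRF5, at 0.278 and 0 CPM in Flag-Pinhead ectoderm, against 3.17 and 3.41 CPM in control ectoderm, and bcl3.L, a regulator of NF-kappaB dimers, at 0.626 and 0.212 CPM in Flag-Pinhead ectoderm, against 1.81 and 2.67 CPM in control ectoderm. By the mirrored rule of under 0.5 CPM in control ectoderm and at least 2 CPM in Flag-Pinhead ectoderm, 203 called genes were switched on. In bulk samples, fewer cells of a type and less RNA per cell cannot be told apart.

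**Figure D1:**
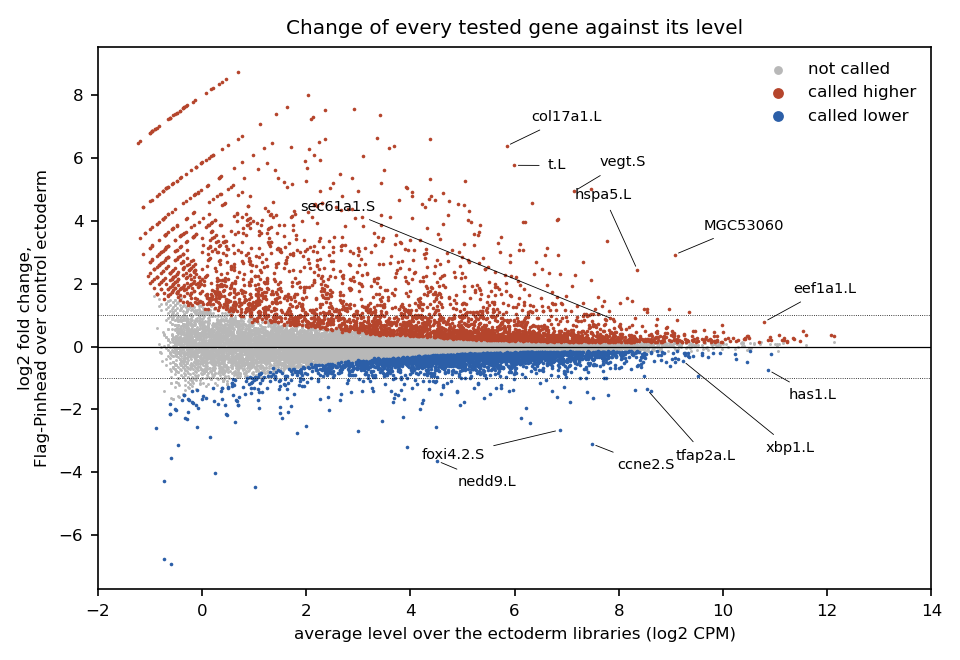
Log2 fold change of every tested gene, Flag-Pinhead over control ectoderm (y axis), against its average level over the ectoderm libraries in log2 CPM (x axis). Each point is a gene, red where called higher (3359), blue where called lower (2591) and grey where not called, and dotted lines mark a 2-fold change; the red points reach much further from 0 than the blue ones.

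The 2 Flag-Pinhead libraries differed more from each other than the 2 control ectoderm libraries did, with a mean chi-square per gene of 4.01 for the Flag-Pinhead pair against 2.27 for the control pair, pnhd left out. Of the 839 genes called at least 2-fold higher with an average log2 CPM of at least 1, 313 (37.3%) were higher in library 2 than in library 1, against 48.3% of all 17326 genes at that level. Of the 125 called at least 2-fold lower, 72 (57.6%) were higher in library 2. The median log2 difference of library 2 to library 1 was -0.09 over the genes that were higher and 0.10 over those that were lower. The 2 control libraries differed as well: 512 (61.0%) of the 839 and 58 (46.4%) of the 125 were higher in control library 2, against 8664 of all 17326 genes at that level, with medians of 0.07 and -0.02.

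Genes of the secretory pathway were tested as 6 lists, of 350 genes in the table, 336 of them at high enough counts to be tested. Of these, 77 (22.9%) were higher and 25 (7.44%) lower, against 16.3% and 12.6% of all genes. Most of these changes were small: 8 members were at least 2-fold higher and 0 at least 2-fold lower. The counts moved with single libraries, to 46 higher without control ectoderm library 1 and to 15 lower without control ectoderm library 2.

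The entry step into the ER was on the higher side. Of 55 tested genes of the signal recognition particle, the translocon, signal peptidase and the insertases of the ER membrane, 17 were higher (30.9%) and 1, the membrane insertase subunit emc8.S, was lower (none without control ectoderm library 1), with a median log2 change of 0.13. The channel subunit sec61a1.S had 333 and 283 CPM in Flag-Pinhead ectoderm, against 169.9 and 167 CPM in control ectoderm (log2 fold change 0.87, SE 0.07, adjusted p = 6.59e-10, edgeR's quasi-likelihood test). Its L copy had 338 and 298 CPM in Flag-Pinhead ectoderm, against 200.3 and 211 CPM in control ectoderm. Both libraries of Flag-Pinhead ectoderm lay above both controls, with library 1 the higher. The 2 small channel subunits went the same way, sec61b.L with 199 and 172 CPM with Flag-Pinhead against 133 and 131 CPM in controls and sec61g.L with 101 and 92.7 CPM with Flag-Pinhead against 67.2 and 73.3 CPM in controls. So did ssr2.L and ssr3.S, subunits of the translocon-associated TRAP complex, at 45.0 and 39.1 CPM with Flag-Pinhead against 25.7 and 25.1 CPM in controls and 45.4 and 43.7 CPM with Flag-Pinhead against 28.7 and 30.0 CPM in controls. The signal recognition particle, which brings ribosomes to the channel, changed less, with a log2 fold change of 0.27 for its subunit srp72.S.

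The chaperones of the ER held the largest changes of this pathway. Of 58 tested, 22 were higher (37.9%, beside 16.3% of all genes) and 0 lower (beside 12.6%), by edgeR at an adjusted p of 0.05. The median was 0.16, and 2 were lower at an unadjusted p under 0.05. By DESeq2, 18 were higher and also 0 lower, and without Flag-Pinhead library 1 edgeR called 1 lower. The Hsp70 chaperone BiP is encoded by hspa5.L, which had 569 and 545 CPM in Flag-Pinhead ectoderm, against 101 and 106 CPM in control ectoderm, which is 2.43 on the log2 scale (SE 0.06, adjusted p = 1.75e-18, edgeR's quasi-likelihood test). The entry named hspa5, with no L or S, had 97.6 and 89.9 CPM in Flag-Pinhead ectoderm, against 54.4 and 50.9 CPM in control ectoderm, and reads of these near copies may be shared. The largest rise among the called members of the list was that of fkbp9.S, a proline isomerase of the ER, at 73.1 and 67.0 CPM in Flag-Pinhead ectoderm, against 4.58 and 4.37 CPM in control ectoderm. None of these 3 genes showed overlap between the groups, and the 2 libraries of each group lay close together.

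Disulfide isomerases rose by less. Levels were 55.3 and 47.2 CPM with Flag-Pinhead against 27.5 and 28.4 CPM in controls for pdia4.S, 141 and 129.8 CPM with Flag-Pinhead against 96.3 and 101 CPM in controls for pdia3.L, 238 and 216 CPM with Flag-Pinhead against 177 and 170.4 CPM in controls for pdia6.S and 619 and 496 CPM with Flag-Pinhead against 409 and 419 CPM in controls for p4hb.L. For p4hb.L the 2 Flag-Pinhead libraries were themselves apart, library 1 well above library 2, and the rise was 0.43 on the log2 scale. The sulfhydryl oxidase qsox1.L, which makes disulfide bonds, had 88.2 and 93.0 CPM in Flag-Pinhead ectoderm, against 56.6 and 59.0 CPM in control ectoderm. The lectin chaperones for glycoproteins, canx.S and calr.L, changed by 0.35 and 0.31 on the log2 scale, and the ER Hsp90, hsp90b1.L, by 0.33.

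Genes of the unfolded protein response, the pathway that senses misfolded protein in the ER, moved both ways. Of 45 tested, 10 were higher and 5 lower, with a median of -0.02, and the lower count was 3 without control ectoderm library 2. The shares were 22.2% higher, beside 16.3% of all genes, and 11.1% lower, near the 12.6% of all genes. Higher were both copies of herpud1, which serves degradation of ER proteins, with 29.0 and 26.9 CPM in Flag-Pinhead ectoderm, against 9.91 and 11.98 CPM in control ectoderm for the S copy. The stress regulators atf4.S and ddit3.L (CHOP) had 45.5 and 50.9 CPM with Flag-Pinhead against 30.5 and 31.7 CPM in controls and 2.64 and 4.17 CPM with Flag-Pinhead against 0.804 and 1.08 CPM in controls. The L copy of atf4 did not pass the test (log2 fold change 0.07, adjusted p = 0.488, edgeR's quasi-likelihood test). The largest rise on this list was that of creb3l2.S (log2 fold change 1.86, adjusted p = 8.2e-07, same test). Its L copy did not pass (log2 fold change -0.12, adjusted p = 0.398, same test). Lower were the transcription factor xbp1 in both copies and ern1.L (IRE1), the kinase that splices its RNA. The L copy of xbp1 had 538 and 475 CPM in Flag-Pinhead ectoderm, against 678 and 704 CPM in control ectoderm (log2 fold change -0.45), the S copy 186 and 184 CPM in Flag-Pinhead ectoderm, against 215 and 255 CPM in control ectoderm, and ern1.L 66.0 and 70.6 CPM in Flag-Pinhead ectoderm, against 85.5 and 86.3 CPM in control ectoderm. Thus hspa5.L (BiP) was higher in both libraries while ern1.L and both copies of xbp1 were lower. The groups did not overlap in any of the 4 genes, as in 62.2% of all genes tested. The S copy of ern1 did not pass the test (log2 fold change -0.05, adjusted p = 0.661, edgeR's quasi-likelihood test). The fall of xbp1.S was not called without control ectoderm library 2 (adjusted p = 0.0666, edgeR's quasi-likelihood test). These counts do not measure splicing of xbp1. Past the ER, of 61 tested genes of vesicle coats and their cargo receptors 9 were higher (14.8%) and 3 lower (4.92%), 3 higher without control ectoderm library 1 and 9 lower without Flag-Pinhead library 1. Of 59 tested genes of Golgi and later traffic 5 were higher (8.47%) and 8 lower (13.6%, near the 12.6% of all genes), with a median of -0.11. The higher count there was 2 without control ectoderm library 1, and the lower count 12 without Flag-Pinhead library 2. The vesicle SNARE sec22b.L was among the higher with 31.0 and 28.2 CPM with Flag-Pinhead against 15.2 and 19.2 CPM in controls, and the proprotein convertase pcsk7.L, which trims precursors in the Golgi, among the lower with 26.3 and 21.8 CPM with Flag-Pinhead against 38.2 and 36.1 CPM in controls. The small GTPase rab11a, of recycling endosomes, was lower in both copies, with log2 fold changes of -0.38 and -0.45.

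**Figure D2:**
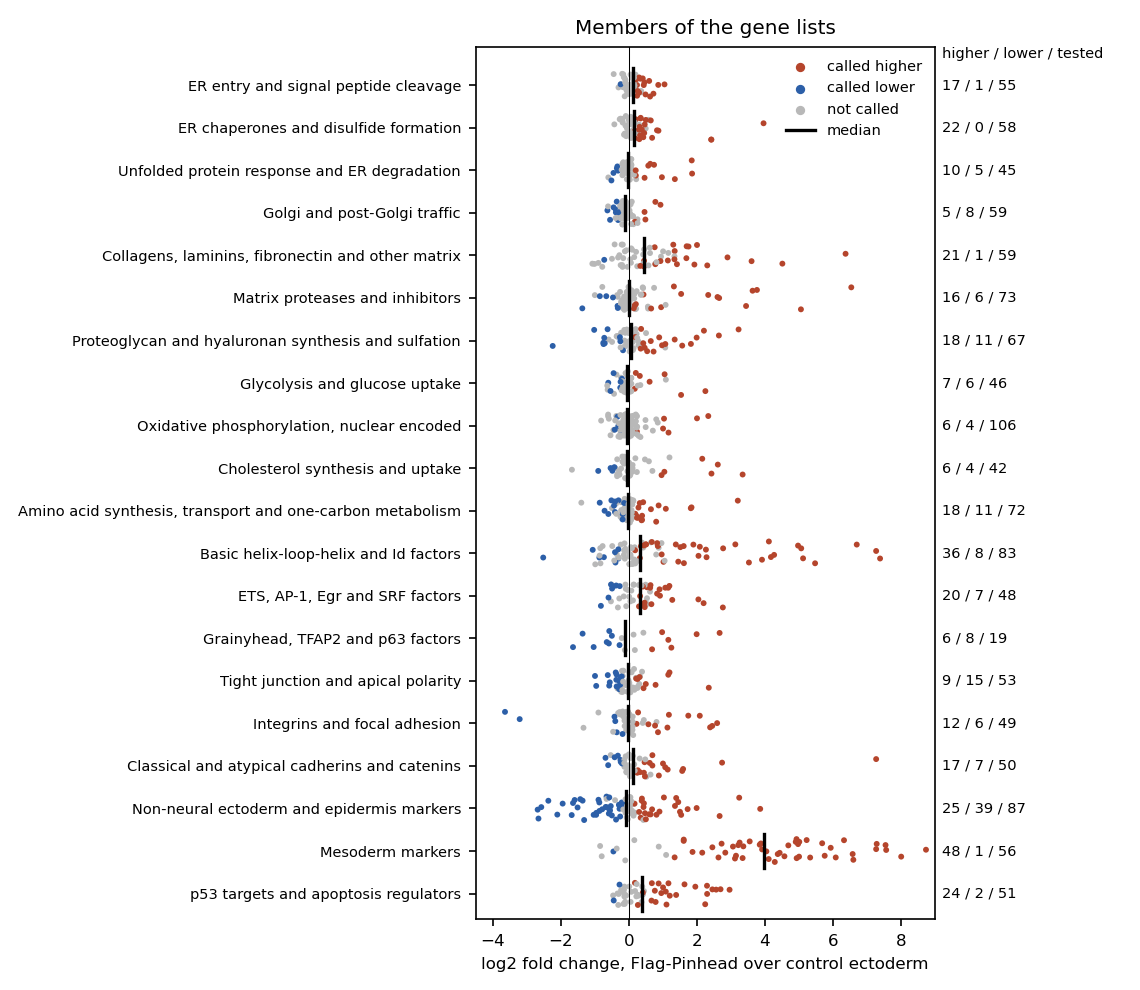
Log2 fold change, Flag-Pinhead over control ectoderm (x axis), of the tested members of 20 gene lists (rows). Points are genes, coloured by call, the black bar is the list's median, and the numbers at the right count members called higher, lower and tested; ER entry and chaperone genes lie slightly above 0, matrix genes further above, and epidermis markers spread to both sides.

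Matrix genes were higher in most of the cases that passed. Of 59 tested genes for collagens, laminins, fibronectin and their partners, 21 were higher and 1, emilin2.L, was lower (2 without Flag-Pinhead library 1), and 15 of the higher ones changed at least 2-fold. The list's median was 0.45, and without control ectoderm library 2 the higher count was 13. Only 59 of 171 listed genes had enough counts to be tested. Of those, 35.6% were higher and 1.69% lower, beside 16.3% and 12.6% of all genes. A gene near 0 in control ectoderm could pass the count filter through Flag-Pinhead ectoderm alone, so these shares are a description only. The largest change was that of col17a1.L, a transmembrane collagen of hemidesmosomes (the anchors of epidermal cells to the basement membrane), with 127 and 109 CPM in Flag-Pinhead ectoderm, against 1.56 and 1.25 CPM in control ectoderm. Laminin chains, the base of that membrane, followed: lamc1.S had 147 and 139 CPM in Flag-Pinhead ectoderm, against 67.5 and 61.4 CPM in control ectoderm, lamc1.L 175 and 161 CPM with Flag-Pinhead against 89.3 and 86.6 CPM in controls and lamb1.S 43.5 and 33.2 CPM with Flag-Pinhead against 9.0 and 11.2 CPM in controls. All of these separated the groups, and in the control marginal zone col17a1.L was at 0.467 and 1.18 CPM. The S copy of col17a1 did not rise. Its log2 fold change was -1.07 and did not pass the test (adjusted p = 0.130, edgeR's quasi-likelihood test). The perlecan gene hspg2.L and the collagen gene col18a1.L, both of basement membranes, had 16.8 and 14.6 CPM with Flag-Pinhead against 5.03 and 7.72 CPM in controls and 27.4 and 27.3 CPM with Flag-Pinhead against 10.01 and 11.5 CPM in controls. Fibronectin, along whose fibrils gastrula cells move, rose little in fn1.S, with 600.1 and 586 CPM in Flag-Pinhead ectoderm, against 469 and 467 CPM in control ectoderm and a log2 fold change of 0.34.

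Matrix proteases rose for 16 of 73 tested (21.9%) and fell for 6 (8.22%), beside 16.3% and 12.6% of all genes, with a median of 0.02. The table held 155 of them, and the same limit of the count filter holds. The membrane-bound collagenase mmp14.L had 84.5 and 69.6 CPM in Flag-Pinhead ectoderm, against 5.93 and 6.41 CPM in control ectoderm (log2 fold change 3.64, SE 0.12, adjusted p = 9.33e-16, edgeR's quasi-likelihood test). Both copies of the tolloid-like protease tll1, a family known in Xenopus to cleave the BMP antagonist Chordin, were higher, tll1.L with 59.4 and 48.6 CPM in Flag-Pinhead ectoderm, against 18.4 and 18.7 CPM in control ectoderm. The metalloproteinase adam33.L had 114 and 113 CPM with Flag-Pinhead against 44.2 and 46.3 CPM in controls. Lower were the serine protease htra1.S, at 56.9 and 62.8 CPM in Flag-Pinhead ectoderm, against 103 and 113 CPM in control ectoderm, and timp3.S, an inhibitor of metalloproteinases, at 1.11 and 2.05 CPM in Flag-Pinhead ectoderm, against 4.32 and 3.80 CPM in control ectoderm. In each of these 5 genes the groups did not overlap, as in 62.2% of all genes tested.

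Enzymes that build the sugar chains of proteoglycans and hyaluronan divided, 18 higher and 11 lower of 67 tested, 7 lower without control ectoderm library 2. The shares were 26.9% higher and 16.4% lower, beside 16.3% and 12.6% of all genes. The hyaluronan synthase has1.L was among the genes that lost most counts, with 1435 and 1357 CPM in Flag-Pinhead ectoderm, against 2337 and 2345 CPM in control ectoderm (log2 fold change -0.75, SE 0.05, adjusted p = 1.46e-10, edgeR's quasi-likelihood test). Another synthase of the same polymer, has2.L, was higher at a low level, 5.14 and 4.45 CPM in Flag-Pinhead ectoderm, against 2.16 and 2.72 CPM in control ectoderm. The heparan sulfate enzymes hs3st1.L, a sulfotransferase, and glce.L, an epimerase, were lower, with 3.48 and 6.15 CPM with Flag-Pinhead against 22.98 and 22.3 CPM in controls and 23.9 and 24.6 CPM with Flag-Pinhead against 39.8 and 39.2 CPM in controls. The S copy of glce did not pass the test (log2 fold change 0.12, adjusted p = 0.625, edgeR's quasi-likelihood test). Those with higher levels included the sulfotransferase chst2.S, with 68.3 and 71.5 CPM in Flag-Pinhead ectoderm, against 7.59 and 7.27 CPM in control ectoderm, and the sulfatase sulf1.L, which removes sulfate from heparan sulfate outside the cell, with 93.1 and 72.3 CPM in Flag-Pinhead ectoderm, against 24.7 and 21.7 CPM in control ectoderm. Core proteins parted as well: sdc2.S and gpc4.S were higher (74.2 and 67.8 CPM with Flag-Pinhead against 26.8 and 28.9 CPM in controls and 96.3 and 91.8 CPM with Flag-Pinhead against 53.4 and 60.0 CPM in controls), and both copies of sdc4 lower (32.0 and 34.2 CPM with Flag-Pinhead against 47.8 and 54.2 CPM in controls for the S copy).

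**Figure D3:**
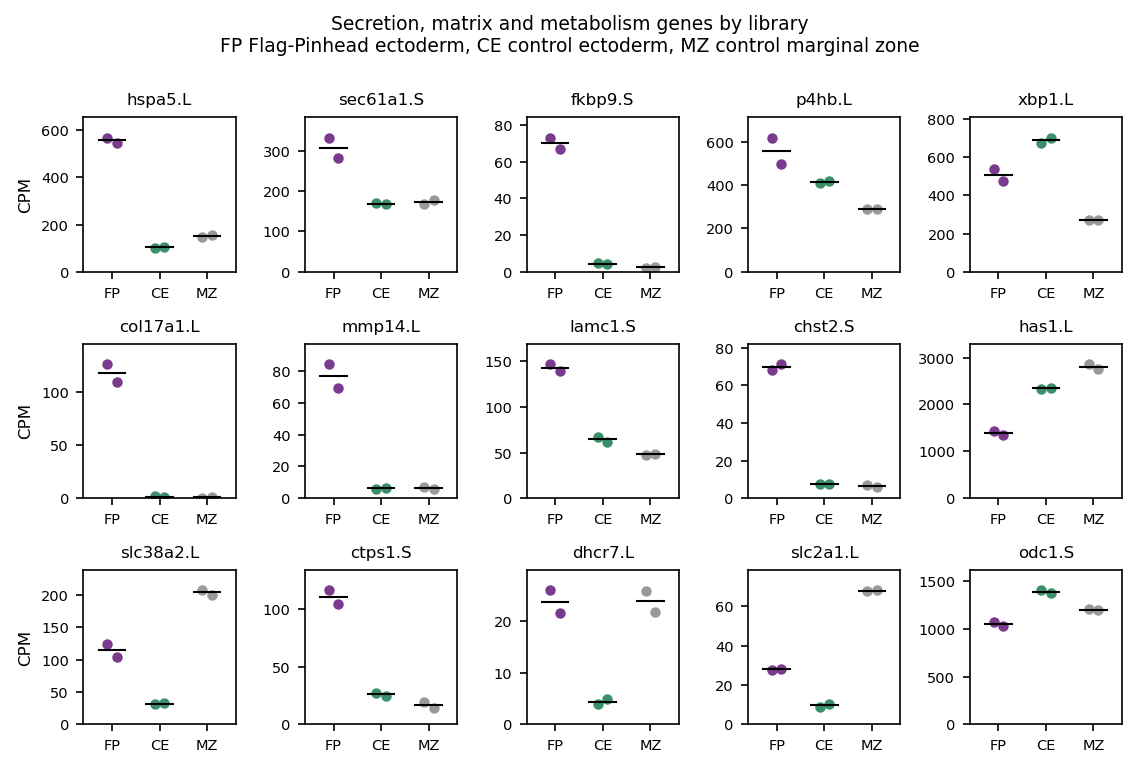
Level (CPM, linear axes from 0) of 15 secretion, matrix and metabolism genes in each library. Points are libraries and bars their group means, for Flag-Pinhead ectoderm (FP), control ectoderm (CE) and control marginal zone (MZ); xbp1.L, has1.L and odc1.S are lower with Flag-Pinhead and the other 12 higher, with no overlap between the ectoderm groups.

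Metabolic genes were called at rates near those of all genes. Of 465 tested genes in 8 lists (510 in the table), 58 (12.5%) were higher and 50 (10.8%) lower, and 22 were at least 2-fold higher and 1 lower. Without control ectoderm library 2, the lower count was 29. The respiratory chain, which makes most ATP, is an example of a list that hardly moved. Of 106 nuclear-encoded genes 6 were higher (5.66%) and 4 lower (3.77%), with a median of -0.05. An exception was the complex I subunit ndufa8, with 38.0 and 38.1 CPM in Flag-Pinhead ectoderm, against 6.84 and 8.23 CPM in control ectoderm for its L copy and 3.82 and 3.74 CPM with Flag-Pinhead against 0.855 and 1.02 CPM in controls for its S copy. Glycolysis likewise had 7 higher (15.2%) and 6 lower (13%) of 46, near the shares of all genes, and its called members went both ways. The glucose transporter slc2a1.L had 27.8 and 27.97 CPM in Flag-Pinhead ectoderm, against 9.05 and 10.2 CPM in control ectoderm, slc2a12.L had 9.31 and 7.77 CPM with Flag-Pinhead against 1.91 and 1.65 CPM in controls, and the hexokinases hk1.L and hkdc1.L 20.9 and 10.9 CPM with Flag-Pinhead against 7.69 and 7.61 CPM in controls and 25.2 and 27.7 CPM with Flag-Pinhead against 11.5 and 11.8 CPM in controls. The isomerase gpi.L and the kinase pgk1.L, which act further down, were lower with 37.5 and 39.1 CPM with Flag-Pinhead against 55.3 and 61.0 CPM in controls and 37.4 and 42.5 CPM with Flag-Pinhead against 52.04 and 56.8 CPM in controls. For hk1.L the 2 Flag-Pinhead libraries differed more from each other than library 2 did from the controls, while the other 5 genes had closer replicates. The S copies of hkdc1 and gpi did not pass the test (log2 fold changes 0.03 and -0.18, adjusted p = 0.914 and 0.204, edgeR's quasi-likelihood test).

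Amino acid genes held the most changes of any metabolic list, 18 higher and 11 lower of 72, the lower count 4 without control ectoderm library 2. The shares were 25% higher and 15.3% lower, beside 16.3% and 12.6% of all genes. The glutamine and alanine transporter slc38a2.L had 124 and 105 CPM in Flag-Pinhead ectoderm, against 32.2 and 32.4 CPM in control ectoderm, a log2 fold change of 1.83. Its control marginal zone level was 207 and 201 CPM. The transporter heavy chain slc3a2, the glutathione-degrading enzyme chac1.L and the nutrient sensor sesn2.L had 12.02 and 11.4 CPM with Flag-Pinhead against 3.12 and 3.41 CPM in controls, 3.197 and 6.29 CPM with Flag-Pinhead against 0.603 and 0.397 CPM in controls and 267 and 288 CPM with Flag-Pinhead against 150.2 and 151 CPM in controls. These genes are known in mammals as targets of stress factors such as ATF4 and p53. In polyamine synthesis, ornithine decarboxylase was lower, with 1071 and 1025 CPM in Flag-Pinhead ectoderm, against 1402 and 1371 CPM in control ectoderm for odc1.S, and so was azin2.S, an activator of that enzyme, with 486 and 523 CPM in Flag-Pinhead ectoderm, against 974 and 968 CPM in control ectoderm. The other decarboxylase of the pathway, amd1.L, was higher, with 52.2 and 47.3 CPM in Flag-Pinhead ectoderm, against 37.5 and 39.1 CPM in control ectoderm. Its S copy did not pass the test (log2 fold change 0.03, adjusted p = 0.722, edgeR's quasi-likelihood test). The groups did not overlap for any called gene of this paragraph, as in 62.2% of all genes tested.

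Nucleotide synthesis changed by single genes, with 13% of its tested members higher and 17.4% lower, beside 16.3% and 12.6% of all genes. The CTP synthase ctps1.S had 116 and 104 CPM in Flag-Pinhead ectoderm, against 27.6 and 24.9 CPM in control ectoderm, a log2 fold change of 2.07, and cad.L, which starts pyrimidine synthesis, 515 and 522 CPM in Flag-Pinhead ectoderm, against 425 and 401 CPM in control ectoderm. The purine salvage enzyme hprt1.L was lower with 4.24 and 7.13 CPM with Flag-Pinhead against 11.4 and 12.9 CPM in controls. Of 46 tested genes 6 were higher and 8 lower, 3 lower without control ectoderm library 1. Cholesterol genes also parted by gene, 6 higher (14.3%) and 4 lower (9.52%) of 42, near the shares of all genes. The reductase of the last step, dhcr7, rose in both entries, with 26.1 and 21.6 CPM in Flag-Pinhead ectoderm, against 3.92 and 4.94 CPM in control ectoderm for dhcr7.L, and the efflux pump abca1.S had 7.78 and 10.9 CPM with Flag-Pinhead against 0.804 and 1.02 CPM in controls. The low-density lipoprotein receptor ldlr.L and srebf2.S, the main regulator of cholesterol synthesis, were lower, with 7.78 and 7.77 CPM with Flag-Pinhead against 13.8 and 15.2 CPM in controls and 27.0 and 28.5 CPM with Flag-Pinhead against 38.6 and 35.7 CPM in controls. In the redox list gpx8.L, a peroxidase of the ER membrane, had 32.9 and 28.6 CPM in Flag-Pinhead ectoderm, against 3.17 and 2.61 CPM in control ectoderm. Of the 52 tested aminoacyl-tRNA synthetases, 3 were higher and 1 lower, 1 and 0 without control ectoderm library 1, and hars1.L for histidine stood apart with 67.1 and 68.4 CPM in Flag-Pinhead ectoderm, against 4.07 and 4.31 CPM in control ectoderm. Where one gene of a family stands so far from the rest, a neighbour that overlaps it could share its reads, since no marking of strand is stated; this was not tested.

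Of 606 transcription factors tested (961 in the table), 192 (31.7%) were higher and 100 (16.5%) lower, beside 16.3% and 12.6% of all genes. At least 2-fold changes numbered 117 higher and 28 lower, and the median was 0.12. Several factors below are on more than one list. A factor near 0 in control ectoderm could pass the count filter through Flag-Pinhead ectoderm alone. The shares of these lists are thus a description only.

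The T-box family, with the mesoderm regulators Brachyury (t), VegT and Eomes, had 28 genes in the table and 14 tested. Of these, 8 were higher (57.1%), and the same limit of the count filter holds. Its 1 fall (7.14%) was tbx22.S at about 1 CPM, 0.695 and 0.918 CPM with Flag-Pinhead against 1.71 and 2.95 CPM in controls. That fall was not called without control ectoderm library 2 (adjusted p = 0.228) or Flag-Pinhead library 1 (0.0735), by edgeR's quasi-likelihood test. In the basic helix-loop-helix family 36 of 83 were higher and 8 lower, 5 lower without control ectoderm library 1, with a median of 0.33. The shares were 43.4% higher and 9.64% lower, beside 16.3% and 12.6% of all genes. The table held 151 members of this family, and the limit of the count filter holds for these shares too. Most of the higher members were Hes genes, repressors that act downstream of Notch in many tissues. The genes hes1.L and hes7.2.S had 44.0 and 38.7 CPM in Flag-Pinhead ectoderm, against 10.2 and 12.03 CPM in control ectoderm, and 18.7 and 15.9 CPM in Flag-Pinhead ectoderm, against 1.01 and 0.965 CPM in control ectoderm. The tandem hes5 genes are near copies that may share reads, and 10 of their L or S copies were higher, hes5.6.S with 11.0 and 7.77 CPM with Flag-Pinhead against 0.704 and 0.511 CPM in controls and hes5.8.L with 11.6 and 11.1 CPM with Flag-Pinhead against 2.41 and 2.27 CPM in controls. The Notch receptor notch1.S, no member of these lists, had 294 and 285 CPM in Flag-Pinhead ectoderm, against 124 and 115 CPM in control ectoderm. The myogenic factor myf5.L and the presomitic factor msgn1.L had 1.39 and 2.47 CPM with Flag-Pinhead against 0 and 0.114 CPM in controls and 1.39 and 1.06 CPM with Flag-Pinhead against 0 and 0 CPM in controls, almost no counts in the controls. Among the lower was olig3.S, a neural factor, at 0.904 and 1.201 CPM in Flag-Pinhead ectoderm, against 6.44 and 5.62 CPM in control ectoderm.

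A list of zinc finger factors held the Snail, Zic, Gli, Sall and Zeb families and others such as Prdm genes, several of them known from the neural plate. Of 127 tested (164 in the table), 34 were higher (26.8%) and 11 lower (8.66%), beside 16.3% and 12.6% of all genes. The repressor zeb2 was higher in both copies, zeb2.S with 49.5 and 40.9 CPM in Flag-Pinhead ectoderm, against 3.52 and 4.14 CPM in control ectoderm. The factor sall1.S had 180.4 and 137 CPM in Flag-Pinhead ectoderm, against 61.6 and 62.9 CPM in control ectoderm. Among the lower members, prdm1 (Blimp1) was called in both copies, prdm1.S with 55.3 and 59.4 CPM in Flag-Pinhead ectoderm, against 153 and 149.97 CPM in control ectoderm, and prdm14, known in mammals from pluripotent cells, in both copies, prdm14.S with 4.87 and 8.62 CPM in Flag-Pinhead ectoderm, against 20.4 and 22.3 CPM in control ectoderm. Groups did not overlap for any of these 4 genes, as in 62.2% of all genes tested. The SoxB1 genes of early ectoderm and neural plate were higher too, sox2.L with 134 and 100.2 CPM in Flag-Pinhead ectoderm, against 44.0 and 51.9 CPM in control ectoderm and sox3.S with 736 and 684 CPM in Flag-Pinhead ectoderm, against 406 and 389.5 CPM in control ectoderm, while sox11.L was lower, with a log2 fold change of -0.32.

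Immediate early and ETS factors include many targets of the FGF and MAP kinase pathway. They were higher for 20 of 48 (41.7%, beside 16.3% of all genes) and lower for 7 (14.6%, near 12.6%), with a median of 0.32. The AP-1 subunit fos.S had 156 and 155 CPM in Flag-Pinhead ectoderm, against 70.5 and 68.5 CPM in control ectoderm, fosl1.L 20.7 and 10.2 CPM with Flag-Pinhead against 2.21 and 2.33 CPM in controls, and the ETS factors etv1.S and etv4.L 332 and 294 CPM with Flag-Pinhead against 200.1 and 201 CPM in controls and 232 and 196 CPM with Flag-Pinhead against 134.8 and 142 CPM in controls. The serum response factor gene srf.S went the other way, with 91.8 and 88.5 CPM in Flag-Pinhead ectoderm, against 118 and 115 CPM in control ectoderm. In the SMAD, TCF and Pou group the lower members outnumbered the higher, 22 to 15 of 78, and 9 were higher without control ectoderm library 2. The shares were 28.2% lower and 19.2% higher, beside 12.6% and 16.3% of all genes. The inhibitory Smads smad6 and smad7, which are BMP and TGF-beta feedback genes, were lower in both copies, smad6.S with 25.1 and 34.2 CPM in Flag-Pinhead ectoderm, against 55.8 and 54.6 CPM in control ectoderm and smad7.S with 33.4 and 28.04 CPM in Flag-Pinhead ectoderm, against 56.4 and 48.8 CPM in control ectoderm. Tcf7l1, a repressor of Wnt targets, was lower in both copies and lef1.L, a factor of the same family, higher: tcf7l1.S had 103 and 114 CPM in Flag-Pinhead ectoderm, against 223 and 214 CPM in control ectoderm, and lef1.L 19.8 and 15.4 CPM in Flag-Pinhead ectoderm, against 4.58 and 4.82 CPM in control ectoderm. The pluripotency gene pou5f3.1 had a log2 fold change of 0.46 and its relative pou5f3.2.S one of -0.37. Both directions thus occurred among animal pole factors, of which 19 of 43 were higher (44.2%) and 10 lower (23.3%).

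Forkhead genes moved both ways, with 20 of 53 higher (37.7%) and 10 lower (18.9%), beside 16.3% and 12.6% of all genes. The higher included foxd3.L, a gene of neural crest and dorsal mesoderm, with 58.6 and 42.7 CPM in Flag-Pinhead ectoderm, against 1.81 and 1.59 CPM in control ectoderm, and both copies of foxo3, a stress-responsive factor, with 76.6 and 86.9 CPM in Flag-Pinhead ectoderm, against 20.6 and 23.5 CPM in control ectoderm for the S copy. The lower were led by foxi4.2, an ectodermal gene, in both copies: the L copy had 222 and 205 CPM in Flag-Pinhead ectoderm, against 565 and 580.2 CPM in control ectoderm. In all foxi4 genes tested, both Flag-Pinhead libraries were below both controls. Of the homeobox genes, 19 of 50 tested of the Paired, LIM and Iroquois classes and their relatives (111 in the table) were higher (38%) and 5 lower (10%). In the Distal-less, Msx, Ventx and Nk classes 10 of 25 tested (67 in the table) were higher (40%) and 7 lower (28%). Kruppel-like and Sp factors also parted, 11 higher (29.7%) and 10 lower (27%) of 37. Both copies of sp7 and of sp8 were higher, sp8.S with 32.9 and 33.1 CPM in Flag-Pinhead ectoderm, against 11.5 and 12.5 CPM in control ectoderm. Both copies of klf2 and klf5, and klf17.L, were lower, klf17.L with 281 and 248 CPM in Flag-Pinhead ectoderm, against 379.6 and 407 CPM in control ectoderm.

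Adhesion, matrix and guidance genes together had 100 higher (26.6%) and 48 lower (12.8%) of 376 tested (693 in the table), beside 16.3% and 12.6% of all genes, so that the lower share was that of genes at large. The limit of the count filter given for matrix genes holds for these lists too. Cell-cell junctions moved by type. Among cadherins, nectins and their cytoplasmic partners, 17 of 50 were higher and 7 lower, 3 lower without control ectoderm library 2. The shares were 34% higher and 14% lower, the latter near the 12.6% of all genes. The nectin gene pvrl1.L had 97.2 and 89.6 CPM in Flag-Pinhead ectoderm, against 30.3 and 31.4 CPM in control ectoderm. The planar polarity cadherin celsr1.S had 239 and 221 CPM in Flag-Pinhead ectoderm, against 141 and 143 CPM in control ectoderm, and desmoplakin, which ties desmosomes to keratin, was higher in both copies, dsp.L with 391 and 358 CPM in Flag-Pinhead ectoderm, against 277 and 261 CPM in control ectoderm. Both Flag-Pinhead libraries were above both controls in each of these genes. The desmosomal plaque gene pkp2.L (plakophilin) was slightly lower with 292 and 279.6 CPM in Flag-Pinhead ectoderm, against 362 and 351 CPM in control ectoderm. The cadherin cdh3.L had 721 and 648 CPM in Flag-Pinhead ectoderm, against 616 and 652 CPM in control ectoderm and did not pass the test (adjusted p = 0.159, edgeR's quasi-likelihood test).

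Tight junction and apical polarity genes were the adhesion list with more falls than rises, although their median was -0.01. Of 53 tested, 15 were lower (28.3%, beside 12.6% of all genes) and 9 higher (17%, near 16.3%). Claudins of this epithelium were lower in cldn4, both copies, and cldn7.L. For cldn4.S the levels were 416 and 381 CPM in Flag-Pinhead ectoderm, against 596 and 626 CPM in control ectoderm, and for cldn7.L 726 and 685 CPM in Flag-Pinhead ectoderm, against 842 and 855 CPM in control ectoderm. The polarity gene pard6b.L had 36.3 and 40.6 CPM in Flag-Pinhead ectoderm, against 72.0 and 77.1 CPM in control ectoderm and the junction plaque gene cgnl1.S 22.0 and 24.2 CPM in Flag-Pinhead ectoderm, against 45.2 and 46.7 CPM in control ectoderm. Epithelial cell adhesion molecule was lower in both copies, with a log2 fold change of -0.25 for epcam.S and -0.21 for epcam.L. In the other direction, prom1.L, which marks apical membrane protrusions, had 17.03 and 14.7 CPM in Flag-Pinhead ectoderm, against 2.97 and 3.24 CPM in control ectoderm, and the scaffold amotl1.S 42.1 and 40.9 CPM in Flag-Pinhead ectoderm, against 18.5 and 17.6 CPM in control ectoderm. The groups did not overlap for any of these genes, as in 62.2% of all genes tested, and the falls of claudins and epcam were under 2-fold. That of epcam.L was not called without control ectoderm library 2 (adjusted p = 0.0877, edgeR's quasi-likelihood test).

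Of 49 tested integrin and focal adhesion genes 12 were higher (24.5%) and 6 lower (12.2%, near the 12.6% of all genes). Some chains that bind laminin were among the higher: itga6.L had 71.1 and 65.1 CPM in Flag-Pinhead ectoderm, against 31.9 and 29.9 CPM in control ectoderm, and itga3.L 39.8 and 36.3 CPM in Flag-Pinhead ectoderm, against 24.9 and 26.0 CPM in control ectoderm. The S copy of itga6 did not pass the test (log2 fold change 0.82, adjusted p = 0.0503, edgeR's quasi-likelihood test). The beta chain itgb1.L was called lower (log2 fold change -0.18, adjusted p = 0.00988, same test). Its S copy did not pass (log2 fold change 0.09, adjusted p = 0.265, same test). The itgb4 chain, the partner of itga6 in hemidesmosomes, rose in both copies at low levels, itgb4.L with 1.53 and 1.70 CPM in Flag-Pinhead ectoderm, against 0.453 and 0.284 CPM in control ectoderm. Together with col17a1.L, itga6 and itgb4 are hemidesmosome genes, a grouping made after their values were seen. The largest falls of any genes that averaged above 10 CPM were those of the 2 copies of nedd9, a scaffold of focal adhesions. Its L copy had 2.15 and 4.24 CPM in Flag-Pinhead ectoderm, against 41.5 and 38.0 CPM in control ectoderm (log2 fold change -3.64, SE 0.17, adjusted p = 1.39e-13, quasi-likelihood test of edgeR) and its S copy 2.92 and 2.61 CPM in Flag-Pinhead ectoderm, against 25.8 and 25.4 CPM in control ectoderm. The kinase it binds, ptk2.L (FAK), had 178 and 183 CPM in Flag-Pinhead ectoderm, against 227 and 248 CPM in control ectoderm. Control marginal zone held nedd9.L at 33.7 and 30.0 CPM, near control ectoderm.

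Guidance and movement genes changed in many members. Of 77 tested ephrin, Eph, Flrt, semaphorin and plexin genes 21 were higher (27.3%) and 11 lower (14.3%, near the 12.6% of all genes). The Eph receptors epha4 and epha2, which set tissue boundaries, were higher, epha4.S with 140.0 and 136 CPM in Flag-Pinhead ectoderm, against 47.7 and 46.0 CPM in control ectoderm and epha2.L with 279 and 249 CPM in Flag-Pinhead ectoderm, against 123.3 and 133 CPM in control ectoderm. The ligand efnb2.L had 54.4 and 52.8 CPM in Flag-Pinhead ectoderm, against 24.4 and 25.4 CPM in control ectoderm, and neuropilin nrp2.L 25.5 and 28.6 CPM in Flag-Pinhead ectoderm, against 1.71 and 3.75 CPM in control ectoderm. The small GTPase rhob.L had 521 and 514 CPM in Flag-Pinhead ectoderm, against 231 and 219.7 CPM in control ectoderm. The chemokine cxcl12 and the sphingosine phosphate receptor s1pr5 were lower in both copies. Of these, cxcl12.L had 14.04 and 16.7 CPM in Flag-Pinhead ectoderm, against 42.6 and 41.1 CPM in control ectoderm and s1pr5.L 18.0 and 28.9 CPM in Flag-Pinhead ectoderm, against 105 and 121 CPM in control ectoderm. The chemokine's receptor cxcr4.L had 95.4 and 82.7 CPM in Flag-Pinhead ectoderm, against 103 and 97.2 CPM in control ectoderm and did not pass (adjusted p = 0.0602, edgeR's quasi-likelihood test). Every called gene of this paragraph separated the 2 groups, as did 62.2% of all genes tested.

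Markers of non-neural ectoderm changed in both directions, and several regulators among them were lower. Of 87 tested non-neural ectoderm and epidermis markers, 39 were lower (44.8%) and 25 higher (28.7%), beside 12.6% and 16.3% of all genes, and 14 of the lower and 11 of the higher changed at least 2-fold. The list's summed level was 14898 and 13364 CPM in Flag-Pinhead ectoderm, against 16117 and 16411 CPM in control ectoderm. The AP-2 factor tfap2a.S had 86.4 and 87.9 CPM in Flag-Pinhead ectoderm, against 268 and 274 CPM in control ectoderm, which is -1.64 on the log2 scale (SE 0.06, adjusted p = 2.06e-15, edgeR's quasi-likelihood test). The GATA factor gata2.L had 56.6 and 53.8 CPM in Flag-Pinhead ectoderm, against 164 and 168 CPM in control ectoderm, and dlx6.S 30.8 and 25.2 CPM in Flag-Pinhead ectoderm, against 67.1 and 71.9 CPM in control ectoderm. These 3 genes were lower in both Flag-Pinhead libraries, with the 2 libraries of each group close together. Further Dlx genes fell less, dlx5.S with 102 and 79.5 CPM in Flag-Pinhead ectoderm, against 154 and 157 CPM in control ectoderm and dlx3.S with 65.7 and 48.7 CPM in Flag-Pinhead ectoderm, against 83.8 and 81.2 CPM in control ectoderm. Of the Grainyhead-like genes, grhl1.S and grhl3.L had log2 fold changes of -0.65 and -0.27, while grhl2.L was called higher, with 0.69. The S copy of grhl2 did not pass the test (log2 fold change 0.18, adjusted p = 0.780, edgeR's quasi-likelihood test). The list of Grainyhead, TFAP2 and p63 factors had 8 lower (42.1%) and 6 higher (31.6%) of 19. Among other lower members, xepsin.L, an epidermal serine protease, had 5.49 and 6.71 CPM in Flag-Pinhead ectoderm, against 35.4 and 37.1 CPM in control ectoderm, and bambi.L, a BMP pseudoreceptor, 102 and 68.4 CPM in Flag-Pinhead ectoderm, against 166 and 165 CPM in control ectoderm. With edgeR's robust estimate of spread the adjusted p of bambi.L was 0.0558.

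Of 37 tested keratin and intermediate filament genes 6 were higher (16.2%) and 4 lower (10.8%), near the 16.3% and 12.6% of all genes, with a median of 0.01, and 2 were lower without control ectoderm library 1. The keratin genes krt7.S and krt8.S were higher, krt8.S with 482 and 406 CPM in Flag-Pinhead ectoderm, against 337 and 341 CPM in control ectoderm. The gene krt5.7.L was lower with 653 and 578 CPM in Flag-Pinhead ectoderm, against 721 and 781 CPM in control ectoderm. Uroplakins, plaque proteins of the surface layer, were also slightly higher, upk1b.S with 651 and 553 CPM in Flag-Pinhead ectoderm, against 434 and 456 CPM in control ectoderm. A group of low epidermal genes rose at least 2-fold. Among them otog.L, which encodes an otogelin, a mucin-like protein, had 61.6 and 62.0 CPM in Flag-Pinhead ectoderm, against 6.99 and 5.96 CPM in control ectoderm. The gene itln1.L, known in Xenopus for a secreted lectin of larval epidermis, had 6.05 and 5.09 CPM in Flag-Pinhead ectoderm, against 0.251 and 0.511 CPM in control ectoderm and post3.S 34.6 and 29.7 CPM in Flag-Pinhead ectoderm, against 6.49 and 13.1 CPM in control ectoderm. The 2 control libraries of post3.S were themselves well apart.

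Genes of multiciliated cells and ionocytes, the specialised cells of larval epidermis, were higher for 15 of 32 (46.9%) and lower for 5 (15.6%). Of all genes 16.3% were higher and 12.6% lower at the same threshold. The ciliary regulator foxj1 rose in both copies, with a log2 fold change of 3.05 in foxj1.S and 0.74 in foxj1.L, and the axonemal gene spag6.L had 6.32 and 7.13 CPM in Flag-Pinhead ectoderm, against 0.352 and 0.397 CPM in control ectoderm. The ionocyte gene slc26a4.S, an anion exchanger, had 5.07 and 3.18 CPM in Flag-Pinhead ectoderm, against 0.352 and 0.738 CPM in control ectoderm. In contrast, rfx2.S, which drives ciliary genes with Foxj1, was lower with 35.5 and 36.4 CPM in Flag-Pinhead ectoderm, against 67.2 and 69.6 CPM in control ectoderm, and gmnc.L, an early gene of the multiciliated programme, with 2.36 and 2.40 CPM in Flag-Pinhead ectoderm, against 4.17 and 6.30 CPM in control ectoderm. The fall of gmnc.L was not called without control ectoderm library 2 (adjusted p = 0.0849, edgeR's quasi-likelihood test). For spag6.L and slc26a4.S all 4 libraries were below 10 CPM. Neural plate and crest markers, another fate of ectoderm, were higher for 17 of 41 (41.5%) and lower for 7 (17.1%). Those of cement and hatching gland were higher for 4 (44.4%) and lower for 2 (22.2%) of 9. The limit of the count filter given for mesoderm markers holds for the lists of this paragraph too.

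Outside these lists, the largest falls by rule held cell cycle and signalling genes. The cyclin E2 gene, which drives entry into S phase, was lower in both copies. Its S copy had 30.7 and 43.4 CPM in Flag-Pinhead ectoderm, against 309 and 324 CPM in control ectoderm (log2 fold change -3.09, SE 0.09, adjusted p = 9.92e-17, quasi-likelihood test of edgeR) and its L copy 166 and 183 CPM in Flag-Pinhead ectoderm, against 462 and 447 CPM in control ectoderm. The regulator rgcc.L had 19.9 and 28.5 CPM in Flag-Pinhead ectoderm, against 127 and 132 CPM in control ectoderm and rgs2.L, a brake on G protein signalling, 0.695 and 1.06 CPM in Flag-Pinhead ectoderm, against 4.07 and 4.48 CPM in control ectoderm. The control marginal zone levels were 392 and 384 CPM for ccne2.S and 104 and 109 CPM for rgcc.L. Neither gene was low there. Of the 193 genes at least 2-fold lower, the control marginal zone was at or above the Flag-Pinhead level in 147 and above the control ectoderm level in 71, and it was at or under 0.5 times the control ectoderm level in 67 (34.7%). Of all tested genes, 49.4% were above control ectoderm in the marginal zone and 9.72% at or under 0.5 times it. Of the lower genes, 36.8% were above control ectoderm there. As examples, foxi4.2.S had 259.8 and 255 CPM there, tfap2a.S 209 and 194 and xepsin.L 8.41 and 9.80. Of the 1493 genes at least 2-fold higher, 815 (54.6%) were above control ectoderm in the marginal zone, 486 (32.6%) at least 2-fold, beside 7.3% of all genes, and 346 (23.2%) were at or under 0.5 times it. The control ectoderm values that picked the genes also serve as the reference here, which by itself moves these shares away from those of all genes. Levels differ too: 47.1% of the 1493 were under 1 CPM in the marginal zone, beside 11.2% of all genes. The shares are thus a description only. Stage label and tissue differ together between marginal zone and ectoderm and cannot be told apart.

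**Figure D4:**
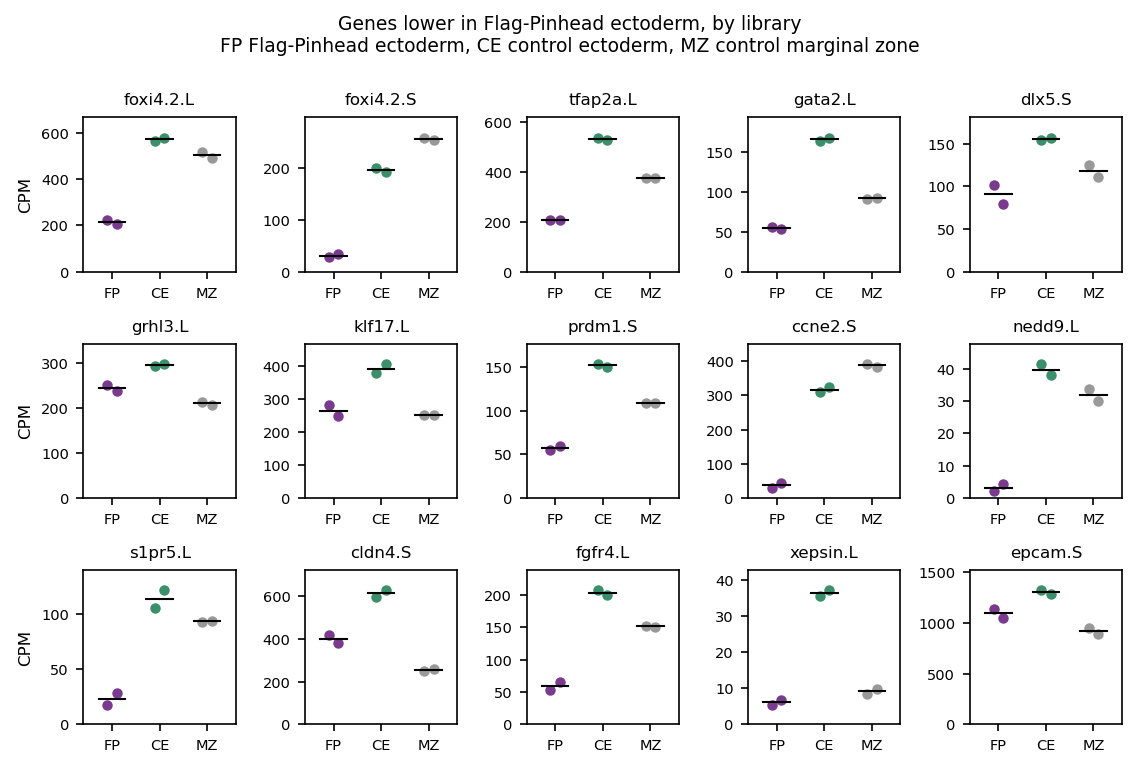
Level (CPM, linear axes from 0) of 15 genes lower in Flag-Pinhead ectoderm, in each library. Points are libraries and bars group means, for Flag-Pinhead ectoderm (FP), control ectoderm (CE) and control marginal zone (MZ); in all 15 both FP points lie below both CE points, and the MZ level is above CE in some genes (foxi4.2.S, ccne2.S) and far below it in others (xepsin.L, cldn4.S).

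On a list of p53 targets and apoptosis regulators (p53 is the factor of the DNA damage response), 24 of 51 tested genes were higher (47.1%) and 2 lower (3.92%, beside 16.3% and 12.6% of all genes; 0 lower without control ectoderm library 2), with a median of 0.38. The death receptor eda2r.L had 133 and 149 CPM in Flag-Pinhead ectoderm, against 27.1 and 30.3 CPM in control ectoderm, and the kinase plk2.L 196 and 199 CPM in Flag-Pinhead ectoderm, against 34.9 and 45.1 CPM in control ectoderm. The sestrin sesn1, a stress regulator of growth, was higher in both copies, sesn1.L with 63.9 and 62.3 CPM in Flag-Pinhead ectoderm, against 8.80 and 10.7 CPM in control ectoderm. The cell cycle inhibitor cdkn1a.L (p21) had 31.3 and 36.6 CPM in Flag-Pinhead ectoderm, against 6.69 and 7.61 CPM in control ectoderm, and the proapoptotic bcl2l11.S (Bim) 9.73 and 10.7 CPM in Flag-Pinhead ectoderm, against 3.42 and 3.12 CPM in control ectoderm. Both Flag-Pinhead libraries were at least 2-fold above both controls in these 5 genes. The proapoptotic bax.L had 131 and 121 CPM in Flag-Pinhead ectoderm, against 139 and 141 CPM in control ectoderm and did not pass the test (adjusted p = 0.0524, edgeR's quasi-likelihood test).

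The L and S copies of a gene give a look at how far 2 similar genes moved together. Among 3863 pairs with both copies tested, 645 had both called: 316 both higher, 260 both lower and 69 in opposite directions. In 1200 pairs 1 copy was called and in 2018 neither. The log2 changes of the 2 copies had a Pearson r of 0.571 across pairs, a description only, since pairs share the 4 libraries and copies can share reads.

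Opposite pairs included several epidermal genes. The L copy of tp63, the regulator of basal epidermal cells, had 3.06 and 1.77 CPM in Flag-Pinhead ectoderm, against 0.503 and 0.227 CPM in control ectoderm, and its S copy 2.99 and 1.70 CPM in Flag-Pinhead ectoderm, against 4.07 and 5.56 CPM in control ectoderm. With foxi1, a regulator of ionocytes, the L copy had 31.8 and 36.5 CPM in Flag-Pinhead ectoderm, against 12.42 and 11.6 CPM in control ectoderm, and the S copy 1.74 and 1.48 CPM in Flag-Pinhead ectoderm, against 4.73 and 4.43 CPM in control ectoderm. The desmosomal cadherin dsc3 parted the same way, dsc3.L with 15.98 and 14.2 CPM in Flag-Pinhead ectoderm, against 4.98 and 5.17 CPM in control ectoderm and dsc3.S with 5.77 and 6.92 CPM in Flag-Pinhead ectoderm, against 9.201 and 10.1 CPM in control ectoderm. In these pairs the L copy was higher and the S copy lower in both Flag-Pinhead libraries. The widest well-counted gap was that of irf5, an interferon regulatory factor: its S copy had 18.1 and 15.7 CPM in Flag-Pinhead ectoderm, against 0.402 and 0.681 CPM in control ectoderm, and its L copy 19.8 and 22.0 CPM in Flag-Pinhead ectoderm, against 25.5 and 27.1 CPM in control ectoderm. Of these falls, that of foxi1.S held in each fit with a library left out, while tp63.S was not called without control ectoderm library 2 (adjusted p = 0.160) or Flag-Pinhead library 2 (0.0957), dsc3.S without control ectoderm library 2 (0.0740) or Flag-Pinhead library 1 (0.0641), and irf5.L without control ectoderm library 2 (0.100) or Flag-Pinhead library 1 (0.0934), by edgeR's quasi-likelihood test. By DESeq2 the adjusted p was 0.0650 for tp63.S and 0.0501 for irf5.L. In dkk2, a Wnt antagonist, the L copy had no count in Flag-Pinhead ectoderm against 32 counts in control ectoderm, and the S copy had 29 counts in Flag-Pinhead ectoderm against 3 in control ectoderm.

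**Figure D5:**
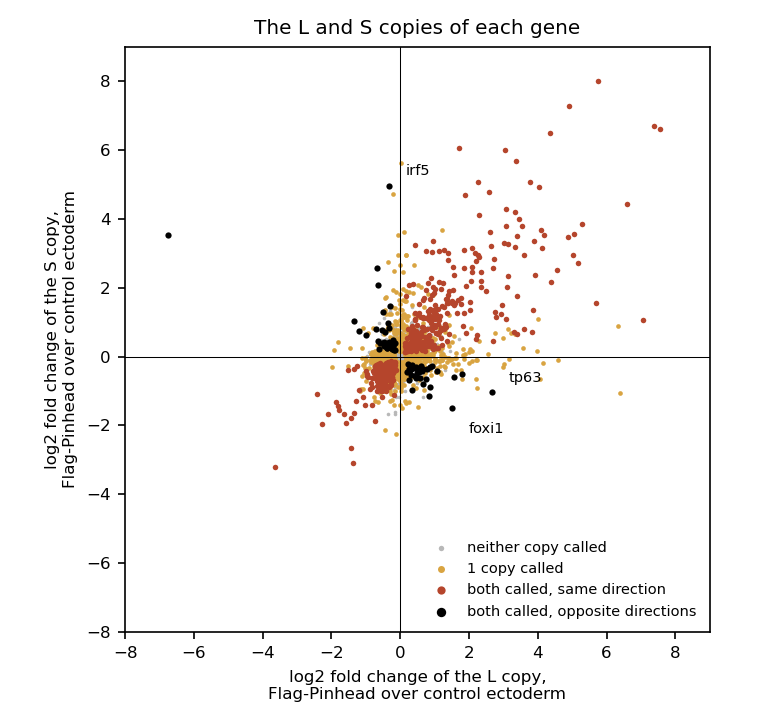
Log2 fold change, Flag-Pinhead over control ectoderm, of the S copy (y axis) against the L copy (x axis) for 3863 gene pairs. Each point is a pair, coloured by whether neither copy, 1 copy or both copies were called; 316 pairs lie in the upper right and 260 in the lower left, called in both copies, and 69 in the other corners, the farthest at the left being dkk2.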

How the data were processed

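RNA was selected with oligo(dT) beads and sequenced, per the labels' protocols, which state no marking of strand, so overlapping or antisense genes cannot be told apart. Raw counts per gene were deposited by the authors for 35649 genes in 16 columns, 2 per sample, which were summed. CASAVA 1.8, HISAT2, SAMtools and HTSeq are named in the submitters' processing notes; neither a genome build nor the settings of the counter was given in the sources used here. A mistyped pair of columns was assigned to control marginal zone sample 1 by the sample titles. Of 24441 numbered gene entries 10897 were given a symbol from the RefSeq table of X. laevis.

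Genes were tested with edgeR 4.0.16 (R 4.3.3) by the quasi-likelihood test on counts, with TMM factors, filterByExpr over the 4 ectoderm libraries and 1 mean per group in 6 libraries (3 residual degrees of freedom). The control marginal zone entered for its spread; the PhSpMo libraries did not, since their columns may be crossed. A gene was called at a Benjamini-Hochberg adjusted p under 0.05. The standard error is the log2 change divided by the square root of the test's F. On simulated counts (19854 genes in the fit), 55.2% of 67 changes of 1.5-fold, 83.6% of 67 of 2-fold and 98.5% of 66 of 4-fold were recovered. Of 172 calls 8.14% were false. Only these genes were changed, drawn from those with more counts and moved up or down at random, whereas 28.9% of genes were called in the data. Each gene had 1 spread for all groups, although the Flag-Pinhead pair scattered more. The rates are thus those of the simulation and not of the real comparison. Replicates of a group differed by more than the 2 columns of a sample (mean chi-square per gene 2.05 to 4.01 against 1.29 to 1.46 in these 3 groups), so none was counted as a repeat. The depth of 15227252 to 19719311 counts per ectoderm library limits genes under about 1 CPM.

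The gene lists and the features described were chosen with earlier results of these data known. Named genes are the 15 largest rises and falls among genes averaging 1 or more in log2 CPM, the 10 largest gains and losses of CPM, up to 8 called and 3 uncalled members of lowest p per list, and the 10 widest opposite L and S pairs; further members, some added to describe a role, were picked after their values were seen. A few genes and 1 list are not reported here. Near copies (hes5, hspa5, pnhd) may share reads. Alternatives covered scaling, filters, the libraries in the fit, DESeq2 1.42.0, the spread estimate, a replicate block and each library left out.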

Additional observations from a re-analysis of the deposited data

How the results depend on the processing

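Genes lower in Flag-Pinhead ectoderm numbered 2591, and 1694 by DESeq2. With each of the 6 libraries left out in turn, they numbered 1643 (without control ectoderm library 2) to 2673, and genes at least 2-fold lower numbered 151 to 300 (without Flag-Pinhead library 2), against 193 in the fit of all 6. All calls numbered 5950, and 4030 (without control ectoderm library 1) to 6605 (with all 8 libraries) over the alternatives, 4091 by DESeq2 and 5625 with the ectoderm libraries alone. Leaving out 1 control leaves a lone sample assumed to vary like the other groups. Other scalings moved the median of all genes by less than 0.03 on the log2 scale. Of the 1686 genes called at a change of at least 2-fold, 1325 were still called by DESeq2, 1362 and 1386 without control ectoderm library 1 and 2, and 1411 and 1468 without Flag-Pinhead library 1 and 2. Of 582 named genes and values, none changed direction under the alternatives run; 32 lost their call by DESeq2, 37 and 34 without control ectoderm library 1 and 2, 21 and 9 without Flag-Pinhead library 1 and 2, and at most 5 under each of the others. A change of direction was counted only for a gene called in the main fit or in the alternative. Named genes were largely picked by low p or large change in these same libraries. A change of direction was thus unlikely from the start, and its absence lends no support. Some alternatives held fewer of the named genes, 566 with a filter of at least 50 counts. Replicate numbers did not pair the samples (correlations of deviations -0.04, -0.03 and -0.04 between groups over 16037 genes), and with the replicate block 5688 genes were called.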

Other observations

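Several genes outside the lists had among the largest gains, and are named here after their values were seen. Complement genes, known from liver and body fluids for defence against microbes, were higher: c9.L had 428 and 373 CPM in Flag-Pinhead ectoderm, against 39.9 and 38.4 CPM in control ectoderm, the C3a receptor gene c3ar1.L 94.9 and 98.4 CPM in Flag-Pinhead ectoderm, against 9.55 and 10.05 CPM in control ectoderm, and c5.2.L 26.0 and 29.0 CPM in Flag-Pinhead ectoderm, against 0.302 and 0.341 CPM in control ectoderm. The groups were far apart in all 3, and the control marginal zone held c9.L at 1.25 and 3.86 CPM. The anion transporter slc26a9.S had 53.6 and 54.5 CPM in Flag-Pinhead ectoderm, against 1.86 and 2.50 CPM in control ectoderm.

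FGF receptor genes moved in opposite directions. The genes fgfr1.S and fgfr2.L were higher, with 261 and 259 CPM with Flag-Pinhead against 109.5 and 117 CPM in controls and 204 and 213 CPM with Flag-Pinhead against 85.8 and 85.3 CPM in controls. Both copies of fgfr4 were lower, fgfr4.L with 53.7 and 65.3 CPM with Flag-Pinhead against 207 and 199.5 CPM in controls and fgfr4.S with 105 and 121 CPM with Flag-Pinhead against 333 and 327 CPM in controls. Both libraries of a group were close in each of these genes. The RNA-binding protein gene lin28a.L, known from pluripotent cells, had 115 and 98.3 CPM in Flag-Pinhead ectoderm, against 38.6 and 41.9 CPM in control ectoderm, and the translation elongation factor eef1a1.L 2351 and 2126 CPM in Flag-Pinhead ectoderm, against 1318 and 1283 CPM in control ectoderm.

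The counts of the remaining lists are by edgeR's quasi-likelihood test at an adjusted p of 0.05. Of all genes 16.3% were higher and 12.6% lower. Shares higher and lower were 24.1% and 13.8% (N-glycosylation), 4.26% and 12.8% (tricarboxylic acid cycle) and 10.3% and 13.8% (fatty acid genes). They were 14.6% and 6.25% (pentose phosphate and redox), 16.4% and 9.59% (nucleolus and ribosome assembly) and 28% and 16% (Sox factors). For nuclear receptors they were 13.5% and 8.11%, for GATA factors 10% and 40%, and for protocadherins 26.7% and 13.3%. Those of aminoacyl-tRNA synthetases were 5.77% and 1.92%. Endoderm markers had 56.2% and 0%, germ plasm markers 6.67% and 20%, and blood and endothelial markers 20% and 0%. Only 16 of the 31 endoderm markers in the table were tested, and vegt is also on the mesoderm list. The limit of the count filter given for mesoderm markers holds for the lists of this paragraph, so these shares are a description only. N-glycosylation had 14 members higher and 8 lower of 58, 5 higher without control ectoderm library 1 and 3 lower without Flag-Pinhead library 2. The tricarboxylic acid cycle had 2 higher and 6 lower of 47, 5 higher without Flag-Pinhead library 2 and 2 lower without control ectoderm library 2. Fatty acid genes had 6 higher and 8 lower of 58, 3 higher without control ectoderm library 1 and 5 lower without control ectoderm library 2. Pentose phosphate and redox genes had 7 higher and 3 lower of 48, 2 higher without control ectoderm library 1 and 5 lower without Flag-Pinhead library 1. Nucleolus and ribosome assembly had 12 higher and 7 lower of 73, 5 and 1 without control ectoderm library 1. Sox factors had 7 higher and 4 lower of 25, 4 higher without control ectoderm library 1 and 7 lower without Flag-Pinhead library 2. GATA factors had 1 higher and 4 lower of 10, 0 higher without control ectoderm library 2 and 2 lower without control ectoderm library 1. Nuclear receptors had 5 higher and 3 lower of 37, 3 higher without Flag-Pinhead library 1. Protocadherins had 4 higher and 2 lower of 15. Of endoderm markers 9 of 16 were higher (9 to 10 with a library left out), of germ plasm markers 1 was higher and 3 lower of 15 (1 lower without control ectoderm library 1), and of blood and endothelial markers 1 of 5 was higher.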
